A study of Caenorhabditis elegans with 2 samples.

Results

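The regions described are 414 peaks of tagged UNC-42 whose summits lay in introns close to the start of a gene in Caenorhabditis elegans. They were chosen by position alone. A summit had to lie inside a protein-coding gene of the Ensembl annotation of WBcel235, outside every exon of any protein-coding transcript, and at most 2000 bp from that gene's annotated 5′ end. The 414 summits were 8.66% of the 4780 peaks in the optimal set (exact Clopper-Pearson 95% interval 7.88 to 9.49), and they lay in 370 host genes. Where a summit lay in more than 1 gene, the gene with the closest 5′ end was taken as its host. The remaining optimal summits were 934 intronic summits farther inside genes, 2152 intergenic summits within 2000 bp of a 5′ end, 974 other intergenic summits and 306 summits in exons.

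Chromatin immunoprecipitation with sequencing (ChIP-seq) was done on whole late embryos of the transgenic strain OP173, hermaphrodites carrying UNC-42 fused at its C terminus to GFP and FLAG, 3 hours after synchronisation by egg bleaching. The description in the labels states that GFP was the target of the antibody, whereas the antibody entry reads unc-42. There was 1 group with 2 biological replicates, no untagged or second condition was analysed here, and whole embryos mix all cell types, so a peak cannot be assigned to a cell. The optimal set is the deposited list that passed a threshold on the irreproducible discovery rate (IDR), a measure of how far peak ranks repeat. Single peaks in it can still rank differently in the 2 replicates. Each peak's signal value is the score of the authors' peak caller, with a separate scale in every list.

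UNC-42 belongs to the homeodomain transcription factors and is known for fixing the identity of several classes of neuron, and homeodomains bind short sites built on a TAAT core. In worms, regulatory sequence is found upstream of genes and also in introns, where the early introns of a gene are often the long ones. An intron can hold an enhancer, or the promoter of a shorter transcript that starts further inside the gene. Many annotated 5′ ends in worms mark the place where a spliced leader is joined to the transcript, and the promoter then lies some distance upstream of them.

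Examples of the sequence under these summits are given first, because the later results turn on what lies at and just downstream of the summit. All are RefSeq sequence of WBcel235, the assembly also called ce11, written 5′ to 3′ on the host's strand. In the first pair, 1 capital marks the summit base and the other marks the first base of another annotated transcript of the same gene downstream. The hif-1 stretch is chrV:20782384-20782482 on the plus strand, and the teg-1 stretch is chrIII:11317045-11317296 on the minus strand.
hif-1: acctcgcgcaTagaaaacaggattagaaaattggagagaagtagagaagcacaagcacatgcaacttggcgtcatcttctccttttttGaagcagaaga
teg-1: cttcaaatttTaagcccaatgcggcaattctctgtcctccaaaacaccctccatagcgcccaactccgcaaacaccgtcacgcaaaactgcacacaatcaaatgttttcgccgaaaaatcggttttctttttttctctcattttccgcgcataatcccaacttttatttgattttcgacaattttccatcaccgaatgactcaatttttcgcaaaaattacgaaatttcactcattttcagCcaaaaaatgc

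The next windows reach 50 bp to each side of the summit, and capitals mark a palindrome of TAAT half-sites, TAATNNNATTA, which has the form of a site for a pair of homeodomains. They are the palindrome carriers with the highest signal for which sequence is shown, R05C11.4 at chrIV:2052476-2052576 on the plus strand, Y44A6D.1 at chrV:20789120-20789220 on the minus strand and gars-1, which encodes glycyl-tRNA synthetase, at chrIII:5163000-5163100 on the minus strand. In the last window, at kin-20 (chrX:15276932-15277032, minus strand), capitals mark a run of GA repeats, the other motif described below.
R05C11.4: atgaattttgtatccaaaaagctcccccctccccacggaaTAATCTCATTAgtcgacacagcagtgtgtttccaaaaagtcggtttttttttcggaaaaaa
Y44A6D.1: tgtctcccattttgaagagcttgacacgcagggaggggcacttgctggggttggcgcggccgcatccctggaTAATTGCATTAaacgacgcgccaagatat
gars-1: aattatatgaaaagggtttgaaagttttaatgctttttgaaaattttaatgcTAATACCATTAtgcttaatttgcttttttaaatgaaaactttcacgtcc
kin-20: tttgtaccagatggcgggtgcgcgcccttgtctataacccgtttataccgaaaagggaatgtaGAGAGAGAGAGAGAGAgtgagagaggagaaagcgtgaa

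The strongest of these summits lay in the first intron of eva-1, which encodes a transmembrane co-receptor for the axon guidance ligand SLT-1. Its pooled signal value was 909.8, with 423 in replicate 1 and 486 in replicate 2, and it ranked 13 of the 4780 optimal peaks, 11 in replicate 1 and 14 in replicate 2. It stood 905 bp from the gene's 5′ end. No other near-start intronic summit came close to it in either replicate. The second was in hif-1, the alpha subunit of the hypoxia-inducible factor, with a pooled signal of 559, 256 in replicate 1 and 305 in replicate 2. The third was in the uncharacterised gene R05C11.4, with 551, 242 and 306 in the same order. The fourth was in gsa-1, the stimulatory G protein alpha subunit, with 546, 214 and 337. These were among the first 83 ranks of the optimal set, and both replicates placed each of them within their own first 134.

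The other 11 of the 15 strongest had pooled signal values from 425 to 513, and their hosts belong to several kinds of gene. Kinases and signalling were represented by csnk-1 (a casein kinase 1 of the gamma type, 467), pdk-1 (the PDK1 kinase of insulin signalling, 434) and kin-20 (a casein kinase 1 of the delta and epsilon type, 425). Genes with known neuronal roles were nca-2, a sodium leak channel, at 450.3 and unc-53, a cytoskeletal protein of axon outgrowth, at 431. The remaining hosts were teg-1 at 513, the DNA repair gene ercc-1 at 505, ZC449.4 at 491, Y44A6D.1 at 435, the tyrosine catabolism gene hgo-1 at 430.0 and the RNA-binding gene etr-1 at 428. In replicate 1 these 11 ranged from 192 to 255, and in replicate 2 from 202 to 288, so none of them reached the eva-1 value in its list.

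As a class the near-start intronic summits had ordinary signal. Their median pooled signal was 136, with quartiles of 104 and 206, beside a median of 138 and quartiles of 104 and 205 over all optimal summits. Of the 414, 83 (20%) stood among the 956 highest-signal peaks and 85 (20.5%) among the 956 lowest. Ranks ran from 13 to 4768. The summits were thus spread over the whole range of the optimal set and not gathered at either end.

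Both replicates placed most of them, which the choice of these peaks by IDR favours in advance. The replicate lists were also long, reaching at least rank 21719 in replicate 1, which makes a match easier. A summit of the replicate 1 list lay within 100 bp of 399 of the 414, a summit of the replicate 2 list lay that near to 406, and 391 (94.4%, interval 91.8 to 96.4) were matched in both. Over all optimal summits the share in both was 96.2%. No near-start intronic summit was missing from both lists. Among the 391, replicate signal values had a Spearman correlation of 0.805 and a Pearson correlation of 0.82 on the log2 scale, as a description over summits that share the same pair of libraries. Their summits were 25 bp apart in the median. When each replicate list was limited to its 4780 highest peaks, 306 (73.9%) were in both, beside 76.8% of all optimal summits.

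**Figure D1:**
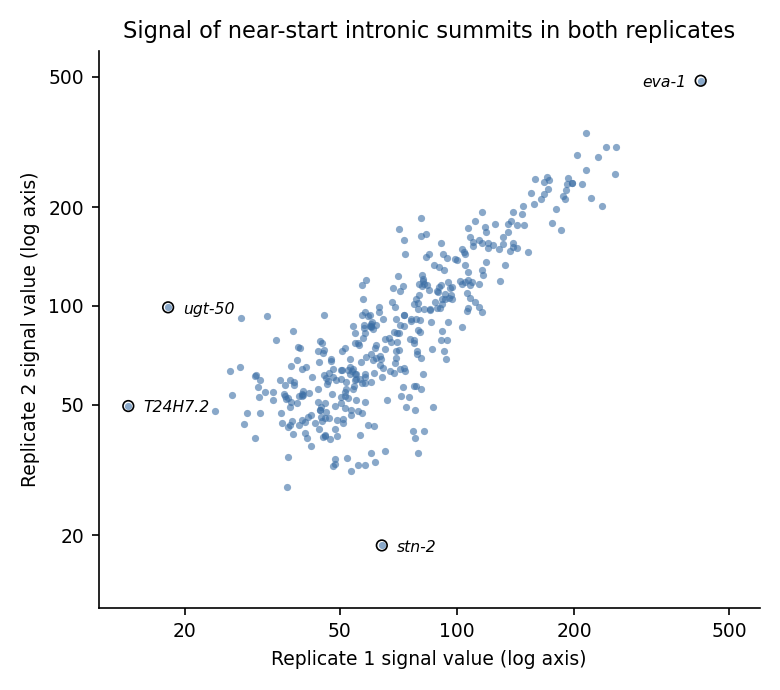
Signal value of the 391 near-start intronic summits matched in both replicate lists, replicate 1 on the x axis and replicate 2 on the y axis, both log axes with each list's own scale; each point is a summit. The eva-1 summit stands apart at the top right (423 and 486), and T24H7.2, ugt-50 and stn-2 are circled as the summits with the largest rank differences.

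The ranks of 333 of the 391 (85.2%) differed by less than 2-fold between the replicates. The 3 largest differences were at T24H7.2, at ugt-50, a UDP-glucuronosyltransferase, and at stn-2, a syntrophin. The T24H7.2 summit had a signal of 14.3 in replicate 1 and 49.5 in replicate 2, with ranks of 21719 and 4370. The ugt-50 summit had 18.1 and 99, with ranks of 15142 and 1585, and the stn-2 summit had 64.1 and 18.6, with ranks of 2375 and 15469. T24H7.2 and ugt-50 ranked far higher in replicate 2, and stn-2 far higher in replicate 1.

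How many listed regions of this kind reached the optimal set was counted next. The pooled list, in which background regions were kept, had 2730 entries at near-start intronic positions, and 15.2% of them (13.8 to 16.6) were in the optimal set, beside 20.1% of all 23778 pooled entries. The share was 32.4% at intergenic positions near a 5′ end, 19.8% at intronic positions farther inside and 5.41% in exons. These shares follow from the IDR threshold, and no test was made between them.

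The annotation offered 14438709 bp of intronic sequence that met the rule, 14.4% of the genome, so the density was 28.7 summits per Mb (exact Poisson interval 26 to 31.6), beside 47.7 per Mb for all optimal peaks over the whole genome. By chromosome the density was 36.8 per eligible Mb on X (29.4 to 45.5), 35.5 on I, 34.1 on III, 33.4 on II, 22.1 on IV (16.5 to 28.9) and 16.2 on V (12.1 to 21.2). The intervals of X, I, II and III overlapped each other, and that of V lay below all of them. All optimal peaks were also sparsest on V, with 32.4 per Mb, and densest on X, with 59.1.

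Within the first 2000 bp the summits became denser with distance from the 5′ end. The density was 21.9 per Mb of intron (14.8 to 31.2) in the first 250 bp and 44.3 (33.7 to 57.1) from 1751 to 2000 bp, rising in every step but the second, which stood at 21.2. Beyond the limit, intronic density stayed between 40.3 per Mb at 2001 to 3000 bp and 51.5 at 6001 to 10000 bp. Introns longer than 1000 bp showed the same direction at a higher level, 27.3 per Mb (8.87 to 63.8, from 5 summits) in the first 250 bp, 80.4 (58.7 to 108) from 1751 to 2000 bp and 68 to 70.1 beyond. The quartiles of the distance over the 414 were 584, 1088 and 1551 bp.

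**Figure D2:**
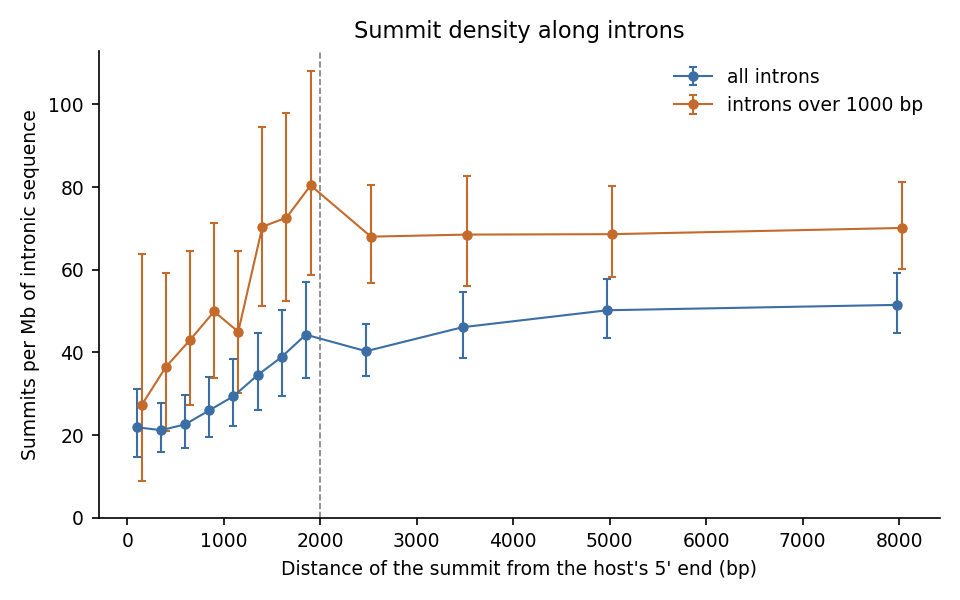
Optimal summits per Mb of intronic sequence (y axis) by distance from the host's 5′ end (x axis, bp, bins plotted at their centres and wider beyond the dashed line at 2000 bp), for all introns and for introns over 1000 bp; bars are exact Poisson 95% intervals. Density in all introns rises from 21.9 in the first bin to 44.3 in the last bin before the limit, and the long introns stand above at every distance.

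The limit of 2000 bp cut through a continuous run of summits. Just inside it were hst-3.2, a heparan sulphate sulfotransferase gene, and stn-2, both at 1995 bp with signals of 127 and 96.1, and mtm-6, a myotubularin gene, at 2000 bp with 222. Just outside were mef-2, a MADS box transcription factor gene, at 2004 bp with 194, and arr-1, the arrestin gene, and a second pdk-1 summit, both at 2015 bp with 203 and 95. Closest to a 5′ end were Y57G11C.22 at 6 bp with 83.5, pir-1, an RNA phosphatase gene, at 17 bp with 121, and Y105C5A.1272 at 69 bp with 128.

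Most of the summits were in the first intron of the host, and in long introns. There were 256 (61.8%, 57 to 66.5) in the first intron, which made up 42.1% of the eligible bases, 85 (20.5%) in the second, which made up 24.4%, and 69 (16.7%, 13.2 to 20.6) in the third or a later intron, which made up 33.1%. The other 4 had no intron number because no protein-coding transcript of the host spanned the summit. They lay inside the host only by the gene's outer bounds, at positions that made up 0.486% of the eligible bases. The introns that held a summit had a median length of 1456 bp, with quartiles of 679.5 and 2857 bp. Short introns, of at most 200 bp, held 20.5% of the eligible bases and 6 summits (1.45%, 0.534 to 3.13). Introns over 2000 and up to 5000 bp held 9.83% of the bases and 107 summits (25.8%, 21.7 to 30.3), and longer ones held 3.86% and 42 summits (10.1%, 7.41 to 13.5).

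Hosts were in turn rich in intronic sequence. Of the 19203 protein-coding genes with any eligible sequence, 370 (1.93%) were hosts. The share was 0.0282% for genes with at most 200 bp of it, 1.05% for 501 to 1000 bp and 8.7% (7.57 to 9.93) for more than 1500 bp. The density per Mb rose along with it, from 2.56 (from 1 summit) to 59.1. The median host had 1542 bp, beside 661 bp over all 19203 genes.

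Single summits were the rule: 328 hosts had 1, 40 had 2 and 2 had 3. The hosts with 3 were ercc-1, with summits at 84, 288 and 1744 bp, and syd-1, which encodes a presynaptic RhoGAP-like assembly protein, at 455, 1305 and 1527 bp. Of the hosts, 122 (33%) also had an optimal summit in the 2000 bp upstream of the 5′ end, beside 15.8% of all genes with eligible sequence, and 88 (23.8%) had one more than 2000 bp inside the gene, beside 3.18%. Among genes with more than 1500 bp of eligible sequence, the latter share was 35.5% of hosts and 16.8% of all. The other 189 (51.1%) had neither.

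Neighbouring summits of the same host were often about 200 bp apart. Of 44 neighbouring pairs in 1 host, 21 lay between 199 and 215 bp apart, and none was closer. The weaker summit of these 21 pairs had 0.384 times the signal of the stronger one in the median. At eva-1, the 909.8 summit had a neighbour of 91.2 at 199 bp, which replicate 1 did not list within 100 bp. At lim-4, a LIM homeobox gene, the pair had 319 and 162. The same spacing held for the whole optimal set, where 273 of 503 gaps of at most 1000 bp measured 190 to 220 bp and 13 measured 221 to 251 bp. No optimal pair was closer than 199 bp. No setting of the peak caller is given in the sources used here. Whether the settings fix this smallest gap, and whether such pairs are separate sites, was not tested. Counting 1 summit for all within 250 bp left 392.

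Another start of the same gene was often just downstream. In 82 of the 414 (19.8%, 16.1 to 24) a further protein-coding transcript of the host began within 500 bp downstream of the summit, a position that described 5.86% of the eligible bases. Hosts tend to have many transcripts: 261 of 370 (70.5%) had more than 1 annotated 5′ end, beside 27.4% of all genes with eligible sequence. Within the eligible introns of the hosts alone, the share of bases was 10.7%. In introns over 500 bp it was 57 of 338 summits (16.9%, 13 to 21.3) and 9.78% of the hosts' bases. The interval of the summits lay above the share of bases in each of these settings.

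Within the 500 bp examined, the median from summit to start was 180.0 bp, with quartiles of 127 and 300.2 bp, which the choice of 500 bp bounds. There were 37 starts between 100 and 200 bp downstream, 8.94 per 100 summits, beside 1.42 per 100 eligible bases. That background covers all genes with eligible sequence, and no such profile was made for the hosts alone, which more often have several annotated starts. Upstream starts were also above the level of all eligible bases in most bins, with the highest bar at 200 to 300 bp, 5.07 beside 2.05. In the examples printed above, the summit was 78 bp before a start in hif-1 and 231 bp before one in teg-1. The gsa-1 summit was 171 bp and the eva-1 summit 246 bp before one. Summits with such a start had a median signal of 119, and those without had 139. Intronic summits farther inside had a start downstream in 13.1% (11 to 15.4), and pooled entries at near-start positions that did not reach the optimal set in 9.59% (8.42 to 10.9).

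**Figure D3:**
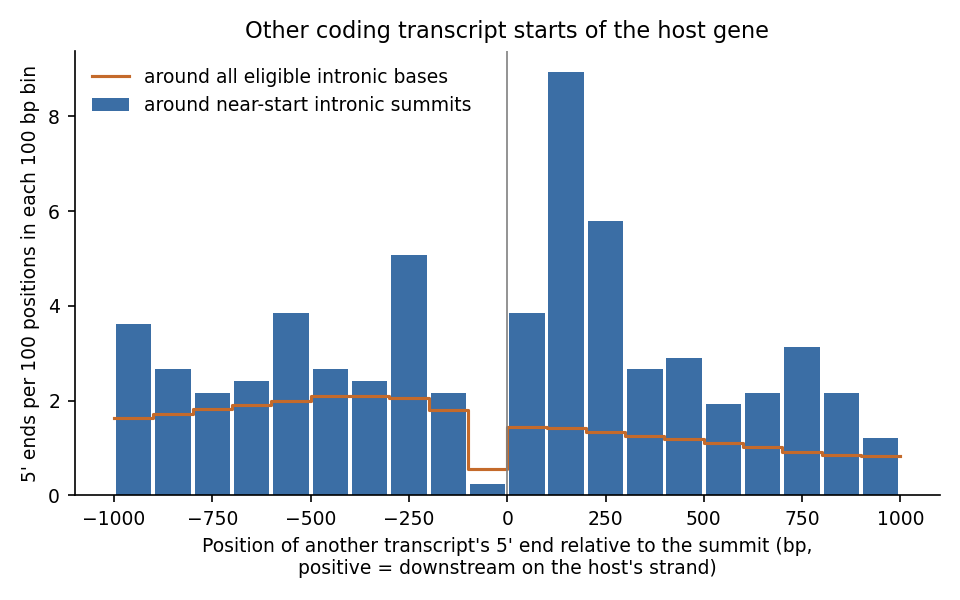
Annotated 5′ ends of other protein-coding transcripts of the host (y axis, per 100 positions in bins of 100 bp) by their place relative to the position (x axis, bp, positive is downstream on the host's strand); bars are for the 414 summits and the line is for all eligible intronic bases. The tallest bar, 8.94, is at 100 to 200 bp downstream, where the line, over all genes and not the hosts alone, stands at 1.42.

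The bases just before these starts can carry a splice acceptor, which is where a spliced leader would be joined. The 82 summits pointed to 77 different downstream starts, and 25 of them (32.5%, 22.2 to 44.1) directly followed AG. AG also came directly before 29.5% of the hosts' 5′ ends, 28.2% of the 5′ ends of all genes with eligible sequence and 23.9% of other internal starts. The interval of the AG share covered each of these. The full acceptor consensus TTTCAG stood directly before 14 of the 77 starts (18.2%, 10.3 to 28.6), as at the teg-1 start printed above. It stood before 16.5% of the 5′ ends of the hosts, 12.6% of the 5′ ends of all genes with eligible sequence and 10.1% of their other internal starts. For TTTCAG, the interval of the 77 starts covered the shares at both kinds of 5′ end, and its lower end was just above the share of the other internal starts.

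Some summits also coincided with genes of other types or stood nearer to another gene. A non-coding gene or pseudogene overlapped 50 of the 414 (12.1%, 9.1 to 15.6), beside 1.72% of the eligible bases. These were annotated as ncRNA at 40 summits, tRNA at 11, snoRNA at 5, and antisense RNA and pseudogene at 1 each, with some summits in several. The tRNA genes stood out for how little sequence they take, with 2.66% of summits (1.33 to 4.7) beside 0.0634% of eligible bases. The strongest of the 11 was in the cuticle collagen gene col-85, with a pooled signal of 248, 105 in replicate 1 and 144 in replicate 2. All 11 had signals from 125 to 248, so none was among the strongest summits.

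The host was not the gene with the nearest 5′ end for 39 summits (9.42%, 6.78 to 12.7). The matching share of eligible bases was not computed, so whether this share is high is not known. The strongest of them was the teg-1 summit, 945 bp inside its host and 284 bp from the 5′ end of mcm-10, a DNA replication gene. The Y44A6D.1 summit was 332 bp from tpan-1, and the summit in the chaperone gene hsp-90, with a signal of 403, was 299 bp from C47E8.4. Among the weaker ones, noted after its values were seen, the summit in the ciliary gene daf-10 lay 1622 bp from its host's start and 116 bp from that of flp-1, which encodes FMRFamide-like neuropeptides. That summit had a pooled signal of 109, 46.4 in replicate 1 and 57.6 in replicate 2.

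Sequence at the summits was compared with windows of the same 201 bp centred 1000 bp to the left and right, and with 72173 windows tiled along the eligible introns. Each motif was searched on both strands as exact letters. The summit windows had a mean GC content of 41.8% ± 6.7 (SD over 414 windows), the flanks 35.4 and 36.3%, and the tiles 34%. TATAAA was in 12.6% of summit windows and in 22 and 23.4% of the flanks, TGATAA in 7.49% beside 16.7 and 17.1%, and the splice acceptor letters TTTCAG in 15.2% beside 36.5 and 34.3%. All optimal windows had nearly the same shares of these 3, 12.5, 7.72 and 15.4%, so the low values were not particular to near-start introns. GCGCGC was in 7.73% of summit windows (5.35 to 10.7), in 2.17 and 1.69% of the flanks and in 7.97% of all optimal windows. Of the other letters searched, CACGTG was in 4.59% (2.79 to 7.07) beside 2.42 and 1.69%, and CAGCTG in 4.83% (2.98 to 7.36) beside 1.93 and 2.66%. These intervals covered the shares of all optimal windows, 3.33 and 4.56%, and those of the tiles, 2.95 and 3.29%. TTTTTTTT was in 14.7% beside 22.5 and 19.6%, and in 14.6% of all optimal windows. The flanks were not required to be intronic.

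The shares of the homeodomain sites at the summits were not below those in the flanks. TAATTA was in 60 of the 414 summit windows (14.5%, 11.2 to 18.3), in 11.8 and 10.4% of the flanks, in 10.7% of the tiles and in 10.9% of all optimal summit windows. The interval covered the share of the left flank, and its lower end was just above those of the right flank, the tiles and all optimal windows. Intronic summits farther inside had a similar share, 13.5% (11.4 to 15.9). Intergenic summits had 9.62% near a 5′ end and 9.55% elsewhere. With windows of 50 bp to each side the near-start share was 6.76%, beside 6.52% in both flanks, so an excess at the summit itself was not detectable with this number of windows. The summits with TAATTA had a median signal of 122, and those without had 139.

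The palindrome TAATNNNATTA was in 14 windows (3.38%, 1.86 to 5.61), beside 1.45 and 1.21% of the flanks, 1.06% of the tiles and 1.88% of all optimal windows. It was in 2.36% of windows of intronic summits farther inside (1.48 to 3.54), in 1.12% of intergenic ones near a 5′ end (0.716 to 1.65) and in 2.46% of other intergenic ones (1.59 to 3.64). The interval of the 14 lay above the share of the tiles and covered that of all optimal windows. No window held both the palindrome and the GA repeat. TAATTA can overlap the palindrome, and 9 of the 14 windows held both.

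The palindrome was found at both strong and weak summits. At R05C11.4 its middle base was 5 bp upstream of the summit, at Y44A6D.1 27 bp downstream and at gars-1 7 bp downstream, as printed above. The hgo-1 carrier, the summit nearer to its 5′ end, had a pooled signal of 418, 170.3 in replicate 1 and 248 in replicate 2, and the site was 47 bp upstream of it. The Y44A6D.1 summit had 236 in replicate 1 and 202 in replicate 2, and the gars-1 summit, with 162 in the pooled list, had 68 and 103. The hst-3.2 carrier had a pooled signal of 127, below the median of 136 for the whole class. The other 9 were also below it, with signals from 83.8 to 124. Summits with the palindrome had a median signal of 119, and those without had 138.

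GA repeats were more frequent at the summits than around them. The letters GAGAGAGA were in 35 windows (8.45%, 5.96 to 11.6), beside 1.45 and 2.17% of the flanks, 0.822% of the tiles and 11.7% of all optimal windows. The share was 16.2% (13.9 to 18.7) at intronic summits farther inside, 10.2% (8.93 to 11.5) at intergenic summits near a 5′ end and 13% (11 to 15.3) at other intergenic summits. The near-start intronic share was thus below that of the deeper introns, with intervals that did not overlap, and no test was made of the difference. Oriented on the host's strand, 20 summits had a repeat in the 50 bp downstream and 7 in the 50 bp upstream. Farther downstream, 6 had one at 50 to 100 bp and 18 at 100 to 150 bp, beside 7 and 6 at those distances upstream.

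The strongest carriers of the GA repeat were gsa-1, the other hgo-1 summit and kin-20. The hgo-1 summit had a pooled signal of 430.0, 193 in replicate 1 and 245 in replicate 2, and the kin-20 summit had 425, 192 and 236. Carriers were spread over the range of signal, with a median of 139.8 beside 136 for the others. When the optimal ranks were split into 5 classes of 956, each class had from 4 to 9 of them.

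**Figure D4:**
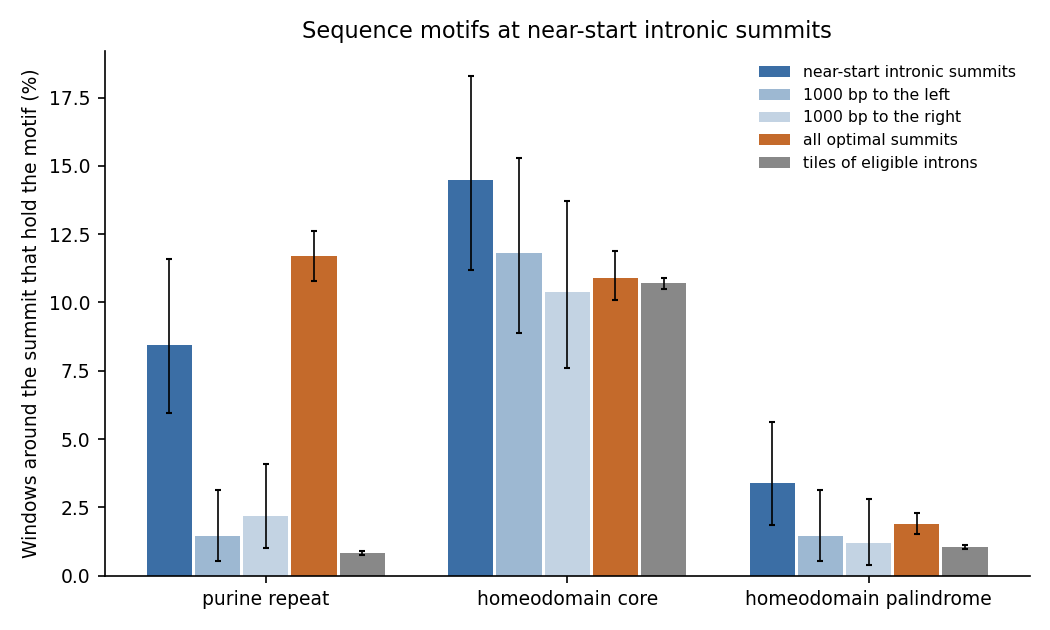
Share of 201 bp windows that hold each motif (y axis, %), for near-start intronic summits, their flanks 1000 bp to the left and right, all optimal summits and tiles of the eligible introns; bars carry exact 95% intervals. The purine repeat is the GA repeat, and the homeodomain core and palindrome are the TAAT sites of the text; the GA repeat stands at 8.45% at the summits and at most 2.17% in the flanks.

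Hosts were counted in 15 lists of genes, chosen with earlier results of these data known. In all, 92 hosts were in a list and 278 in none, and the matching share of all genes was not computed. The background for each count is the 1.93% of genes with eligible sequence that were hosts and the 28.7 summits per eligible Mb over all of them. Density itself rose with the eligible sequence of a gene, so it does not make lists with long introns equal to the rest: the 5 densest lists had medians of 1201 to 1556 bp of eligible sequence per gene, beside 661 bp over all genes. For these lists the values are therefore also given within the 2265 genes with more than 1500 bp, of which 197 (8.7%) were hosts with 59.1 summits per Mb (51.8 to 67.3), a split chosen after seeing the data. These values describe the lists, and no test was made between them.

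Genes of the synapse and of axonal transport had the highest density, 159 summits per Mb (72.8 to 302), from 7 hosts of 47 genes (14.9%, 6.2 to 28.3). The strongest was in dlk-1, a kinase of axon regeneration and synapse formation, with a pooled signal of 341, 147 in replicate 1 and 191 in replicate 2. The summit in unc-76, a FEZ-type transport adaptor, had 304, 135 and 168, and the strongest one in syd-1 had 246, 98.9 and 139. These 3 were above the median of the class, and the weakest of the list, a further summit in syd-1, had a pooled signal of 98.2.

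Axon guidance genes and their effectors had 8 hosts of 59 (13.6%, 6.04 to 25) and 144 summits per Mb (71.7 to 257). Behind eva-1 stood unc-53, with 221 in replicate 1 and 213 in replicate 2, and unc-44, an ankyrin, with a pooled signal of 237, 99.8 in replicate 1 and 138 in replicate 2. Cell adhesion genes had 8 hosts of 72 (11.1%, 4.92 to 20.7) and 137 summits per Mb (70.7 to 239). The first were igcm-4, an immunoglobulin family protein, at 397 with 190.0 and 212, mnr-1, the menorin that guides dendrite branching, at 289 with 137 and 147, and the cadherin gene cdh-9 at 277 with 107 and 173. In both lists, hosts with several summits raised the density. Among the adhesion genes igcm-4, igcm-2, mnr-1 and syg-1 had 2 each, and among the axon guidance genes eva-1, sax-3 and smp-1 had 2 each. The pairs of eva-1, mnr-1 and smp-1 were 199, 203 and 212 bp apart. Densities of the lists were not recomputed with such close summits counted as 1.

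Genes of G protein, cyclic nucleotide and kinase signalling had 13 hosts of 117 (11.1%, 6.05 to 18.3), with 104 summits per Mb (58.5 to 172). Their strongest were gsa-1, pdk-1 and kin-20, all among the 15 strongest of the class. Epithelial junction and polarity genes had 5 of 41 (12.2%) and 91.8 per Mb (29.8 to 214), led by the spectrin gene spc-1 at 275, the polarity kinase gene par-1 at 187 and the spectrin gene unc-70 at 155. Among genes with more than 1500 bp of eligible sequence, the density was 261 per Mb (113 to 514) for synaptic genes from 6 hosts of 18, 192 (105 to 322) for signalling genes from 12 of 41, 186 (80.2 to 366) for adhesion genes from 5 of 25 and 178 (71.4 to 366) for axon guidance genes from 5 of 22. These intervals lay above the 59.1 of all such genes, with close pairs counted as separate summits. By share of hosts, the intervals of synaptic genes (13.3 to 59%) and signalling genes (16.1 to 45.5%) lay above the 8.7% of all such genes. Those of adhesion genes (6.83 to 40.7%) and axon guidance genes (7.82 to 45.4%) covered it. The epithelial list, with 79 (16.3 to 231) from 3 of 22, had an interval that covered it.

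Ion channels had 9 hosts of 127 (7.09%, 3.29 to 13) and 59.7 summits per Mb (28.6 to 109.8), an interval that covered the value of all genes. The 9 became 5 when summits in exons of any transcript or in genes of other biotypes were left out, and 19 when distance was measured from the nearest upstream transcript start. The 9 were led by nca-2, with 209.6 in replicate 1 and 235 in replicate 2, by the chloride channel gene clh-2 at 210.1 and by the potassium channel gene twk-5 at 189. Neurotransmitter receptors and transporters had 8 of 147 (5.44%, 2.38 to 10.4) and 45.2 per Mb (19.5 to 89.1). Their strongest were gbb-2, a GABA-B receptor subunit, at 419.8 with 191 and 226, avr-14, a glutamate-gated chloride channel, at 397 with 171 and 228, and mgl-2, a metabotropic glutamate receptor, at 311 with 135 and 178. All 8 lay more than 1000 bp from the 5′ end, and none of them remained with a limit of 1000 bp. Neuropeptides and their receptors had 8 of 244 (3.28%) and 42 per Mb (19.2 to 79.7), led by nlp-11 at 221, dmsr-2 at 199 and nlp-21 at 178.

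Homeobox genes, the family to which unc-42 belongs, had 5 hosts of 99 (5.05%, 1.66 to 11.4) and 53.5 summits per Mb (19.6 to 116). The hosts were lim-4 at 319 with 138 in replicate 1 and 181 in replicate 2, the sine oculis family gene ceh-32 at 176 with 76.2 and 90, the POU gene ceh-18 at 153 with 60 and 86.6, zag-1 at 93.6 and ceh-10 at 89.6. Other transcription factors had 15 of 444 (3.38%, 1.9 to 5.51) and 40.4 per Mb (23.5 to 64.6), led by the FOXO gene daf-16 at 410.5, the ETS gene ast-1 at 376 and the zinc finger gene ztf-6 at 299.5. The intervals of both lists covered the value of all genes.

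The remaining lists had 2 hosts or none. RNA binding and splicing genes had 2 of 61, etr-1 and unc-75, the latter a CELF splicing factor of neurons with a signal of 108. Muscle contraction and attachment genes had 2 of 49, the actin gene act-4 at 229 and the syntrophin gene stn-1 at 178. Cuticle collagens had 2 of 163, col-85 and col-72, the latter at 106. Ribosomal protein genes had 0 of 80, which allows a share of up to 3.75% when the limit is set at 3 counts, and 4.51% as the upper end of the exact interval. Chemoreceptor genes had 0 of 1362, which allows up to 0.22% and 0.27% by the same limits. When the 4780 highest peaks of replicate 1 alone were used, they had 1 and 2 hosts.

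**Figure D5:**
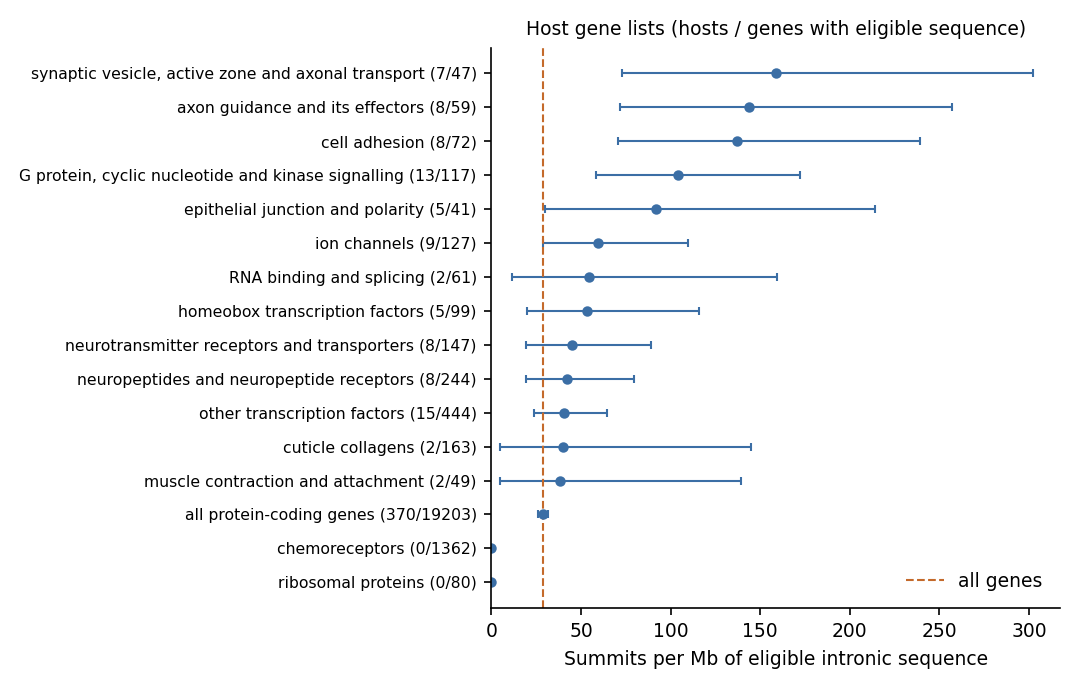
Near-start intronic summits per Mb of eligible intronic sequence (x axis) in each gene list (y axis, with hosts and genes with eligible sequence in brackets); bars are exact Poisson 95% intervals, not drawn at 0, and the dashed line marks the 28.7 per Mb of all genes. Synaptic, axon guidance, adhesion and signalling genes stand highest, from 159 down to 104 per Mb, and all genes with more than 1500 bp of eligible sequence had 59.1 per Mb.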

How the data were processed

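The deposited files were narrowPeak lists of 2 biological replicates, their pool and the optimal IDR set, on ce11. Which aligner and caller were used is not given in the sources used here. The authors deposited a signal value for each peak, used as a score to rank peaks within a list. Depth is unknown, and no read counts were used.

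Summits (start plus the deposited offset) were placed on Ensembl release 115 annotation and RefSeq sequence of WBcel235 with Python 3.11.15, pandas 2.3.3, numpy 2.4.6 and SciPy 1.17.1. Distances, densities and shares were computed with exact Clopper-Pearson or Poisson 95% intervals, which treat summits as independent and cover counting error only. With 1 group no test was made. Classification, motif search and matching were tested on simulated or planted cases.

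The members and lists were chosen with earlier results of these data known, and the DM-domain genes were moved from the homeobox list to the other transcription factors afterwards. The genes named were hosts of the 15 strongest summits, up to 3 per list, hosts with 3 summits, those at the limits, with the largest rank differences and with the strongest motif windows, and small sets. Alternatives covered the limit, the start, overlapping genes, signal, each replicate alone, close summits, windows and matching.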

Additional observations from a re-analysis of the deposited data

How the results depend on the processing

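Read depth is unknown, and the peak caller's score carries no error, so single summits have no interval. Annotation decides membership, and whole embryos hide the cell type. Of 89 recomputed values, 65 stayed within the reported interval or within 1.5 times the reported count.

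With a limit of 1000 bp there were 186 summits at 22.9 per Mb, 78% in the first intron, 28% with a downstream start and 41 hosts in lists. With 3000 bp the first intron held 55.7%. Measured from the nearest upstream transcript start, density was 33.1 per Mb and the first intron held 48%. Outside exons of any transcript and genes of other biotypes it was 25.5 per Mb. The higher-signal part of the optimal set (50% of the peaks) gave 203 summits at 14.1 per Mb with a median signal of 207, 99% in both replicate lists and 60 hosts in lists. Motif shares moved with the window. With 50 bp to each side they were 5.8% for the GA repeat, 6.76% for TAATTA and 1.69% for the palindrome, and with 200 bp they were 14.5% for the GA repeat and 22.2% for TAATTA. In both replicate lists were 99.8% by overlapping intervals and 76.6% by summits within 50 bp. A downstream start lay within 250 bp for 13.5% and within 1000 bp for 27.8%. Counts of hosts in single lists are small and moved more. With 1000 bp, signalling genes had 5 hosts, synaptic genes 3, axon guidance, ion channel and neuropeptide genes 4 each, other transcription factors 6, homeobox genes 3, epithelial genes 2, RNA binding genes 1, and transmitter receptors and muscle genes 0. With 3000 bp, transmitter receptors and axon guidance genes had 15 each. From the nearest transcript start, ion channels had 19, RNA binding genes 5 and muscle genes 4. Outside other biotypes, ion channels had 5 and collagens 1. In the higher-signal part, other transcription factors had 8, adhesion genes 4, homeobox and neuropeptide genes 3 each, and RNA binding genes and collagens 1 each. In genes with over 1500 bp of eligible sequence, a split chosen after seeing the data, 64 hosts were in lists, with 8 for other transcription factors, 5 each for axon guidance and adhesion, 3 for epithelial genes, 1 for homeobox genes and 0 for collagens. Fewer or more positions qualify by the construction of these settings.

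From 1 replicate alone there were 403 to 417 summits at 27.9 to 28.9 per Mb, 62.1 to 63.3% in the first intron. The GA repeat was at 6.2 to 9.59% and a downstream start at 18.5 to 20.1%, and 92 to 99 hosts were in lists. In both lists were 91.1 to 94.2%, but each such summit matches itself in its own list. That share therefore measures only the match to the other replicate's list. Median signal was not recomputed there because each list has its own scale. Keeping 1 summit within 250 bp, chosen after seeing the data, left 392 and moved no other value out of its interval. No paired analysis was possible because there was 1 group and no test.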
